A study of Mus musculus with 11 samples.

Results

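RNA sequencing of mouse macrophages was read for 9 genes reported elsewhere as targets of the microRNA miR-150: Cxcr4, Egr2, Zeb1, Gab1, Mmp14, Myb, P2rx7, Foxp1 and Elk1. They were taken by gene symbol from a table of 31936 genes, and all 9 were present. The cells were peritoneal macrophages from female mice, drawn into the abdominal cavity with thioglycollate, an irritant that recruits inflammatory macrophages. One group of 6 libraries had received a microRNA-150 mimic, a synthetic RNA that stands in for the natural microRNA, and the other group of 5 libraries a negative control. The submitters prepared 12 samples and left out 1 whose RNA was badly fragmented. Strain, age, dose, delivery, time after treatment and the arm of the mimic are not stated in the labels. The series deals with macrophages in macular degeneration, and the comparison asks how far these transcripts differ once the mimic is present.

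A microRNA guides the Argonaute silencing complex to messenger RNAs, mostly through pairing of its seed, bases 2 to 8, with matching letters in the 3′ untranslated region (UTR). Bound messages are degraded faster or translated less, and a block of translation alone leaves no trace in RNA counts. In blood cells miR-150 is abundant in mature lymphocytes and monocytes, and Myb, a transcription factor of blood cell progenitors, is its best known target there. The 9 genes cover several roles: surface proteins (Cxcr4, P2rx7 and Mmp14), signalling proteins (Gab1 and Elk1) and transcription factors (Egr2, Zeb1, Foxp1 and Myb).

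Each of the 9 genes had at least 1 seed match for miR-150-5p in its longest annotated 3′ UTR, with 13 matches in all. Matches were searched on the transcript strand as TTGGGAGA (8mer), TTGGGAG (7mer-m8) and TGGGAGA (7mer-A1), and each position was counted once, in its longest class. Of the 11660 tested genes with an annotated 3′ UTR, 26.3% held a match of at least 1 of these classes and 4.97% held an 8mer. The median length of the longest 3′ UTR was 1182 nt in those genes and 1891 nt in the 9 targets. The shares were not adjusted for UTR length. Published targets are usually picked with a search for seed matches, so the share of 9 of 9 is not independent of how the genes came to be reported. Myb held 2 8mers and P2rx7 an 8mer and a 7mer-m8. Elk1 held 2 matches of the 7mer-m8 class, and Cxcr4, Egr2, Gab1 and Foxp1 held 1 each. Zeb1 had 1 and Mmp14 had 2 matches of the 7mer-A1 class and none of a stronger class.

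The following stretches, 30 bases of the sense strand from the GENCODE M21 annotation of GRCm38, are shown because they belong to 3 genes that were lower with the mimic, to 1 that was higher, and to the 2 genes with the longest matches, with the match in capitals.
Cxcr4, chr1:128588707-128588736, minus strand: ttttttttttattgactgTTGGGAGtttat
Egr2, chr10:67541324-67541353, plus strand: gactttttctacaataggTTGGGAGttgct
Gab1, chr8:80765997-80766026, minus strand: taccttaacagactttccTTGGGAGgtctt
Mmp14, chr14:54444738-54444767, plus strand: actaaggacgtggctctgTGGGAGAacatt
Mmp14, chr14:54444988-54445017, plus strand: ggtagggaggatggggcaTGGGAGAggttc
Myb, chr10:21125306-21125335, minus strand: gtaattggaaaacttatTTGGGAGAatttt
Myb, chr10:21125205-21125234, minus strand: cacttctttttctttttTTGGGAGAtttgt
P2rx7, chr5:122682093-122682122, plus strand: gccttaagtcattacatTTGGGAGAggcgg

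The other arm of the same hairpin, miR-150-3p, is given in RefSeq (GRCm38.p6) at chr7:45121798-45121819 on the plus strand, and its seed is in capitals here.
mmu-miR-150-3p: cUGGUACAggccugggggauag
Its 7mer-m8 match is TGTACCA, and matches of its 8mer, 7mer-m8 or 7mer-A1 class were found in 0 of the 9 genes, against 13.3% of the tested genes with an annotated 3′ UTR.

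The matches lay at different depths of the UTR, and annotated isoforms did not all carry them. In Cxcr4 the match began 125 nt into a 644 nt UTR, in Gab1 321 nt into 1891 nt, and in Egr2 354 nt into 1200 nt. The 8mers of Myb began at 855 and 956 of 1238 nt and that of P2rx7 at 806 of 2985 nt. Annotated 3′ UTRs with a match numbered 1 of 5 for P2rx7 and 1 of 2 for Mmp14. All annotated 3′ UTRs of the other 7 genes held one.

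**Figure D1:**
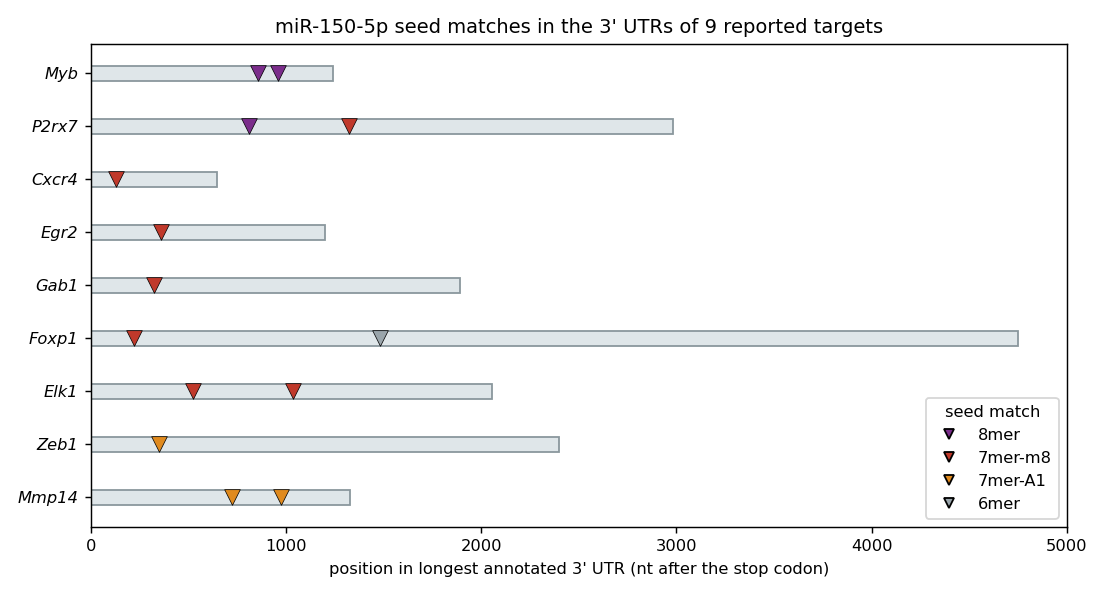
Position of each miR-150-5p seed match along the longest annotated 3′ UTR of the 9 genes, in nucleotides after the stop codon. Bars are UTR lengths and triangles are matches coloured by class; the 8mers stand in Myb and P2rx7, and Mmp14 and Zeb1 have 7mer-A1 matches only.

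Reads on genes numbered 20313901 to 25473814 in mimic libraries and 18538509 to 22668862 in control libraries. Macrophage markers were abundant, their 7 genes summing to 15872 to 20217 CPM (reads on a gene scaled to a common library total) in mimic libraries and 17695 to 20510 CPM in control libraries. Among the 7, Fcgr1 was much higher with the mimic (log2 fold change 1.32, limma adjusted p = 4.05e-09), at 242 to 308 CPM against 103 to 138 in controls. Adgre1 was slightly higher (0.18, limma adjusted p = 0.0079) and Lyz2 lower (-0.23, limma adjusted p = 0.0251). The summed lists of B cell (1.21 to 1.97 CPM in mimic libraries, 1.64 to 2.17 in control libraries), T cell (0.411 to 0.705, and 0.317 to 0.575), mast cell (0.37 to 1.07, and 0.106 to 0.796), neutrophil (0.97 to 1.77, and 1.00 to 1.62) and blood progenitor genes (1.03 to 1.42, and 1.15 to 1.92) were low in both groups. The mesothelial and fibroblast list summed to 8.19 to 13.0 CPM in mimic libraries and 10.2 to 13.4 in control libraries, with 0 of 5 genes called. One gene of the eosinophil list, Siglecf, a surface lectin, was lower with the mimic (log2 fold change -0.31, limma adjusted p = 4.94e-05), and the list summed to 27.3 to 29.1 CPM with the mimic and 33.7 to 35.9 in controls, while the granule genes Prg2 and Epx stayed at or below 0.264 CPM. Ccr3, the eotaxin receptor and the last gene of that list, was too low to test, at 0.283 to 0.534 CPM in mimic libraries and 0.0528 to 0.323 CPM in controls. The part of these cells in the values below was not tested. Libraries also differed in how their levels ran with transcript length. The slope of log2 CPM on log2 length was 0.058, 0.089 and 0.072 in mimic replicates 3, 4 and 6, against -0.063, 0.017 and -0.0023 in mimic replicates 1, 2 and 5 and -0.050 to -0.024 in the 5 controls (two-sided exact permutation test of mimic against control, p = 0.0476). Omitting mimic replicate 2, 3, 4 or 6 or any of the controls, one at a time, gave an exact p of 0.0667 to 0.0873. The slope was tested because earlier work on these data had found a trend with transcript length. Its p is therefore not independent evidence of a difference. Fits with a correction for length and without mimic replicates 3, 4 and 6 are given beside the results that they change.

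Across the whole table, 30.0% of the 12969 tested genes passed the threshold, a limma adjusted p below 0.05, with 15.4% higher and 14.6% lower with the mimic. Of the 9 targets 8 were abundant enough to test, and 5 of these passed: Egr2, Gab1 and Cxcr4 fell, and Zeb1 and Mmp14 rose. The 5 called changes ran from -0.21 to 0.44 on the log2 scale, where the median absolute log2 fold change of all called genes was 0.26. The median log2 fold change of the 8 was 0.039 and that of all tested genes 0.00071. The 3 that fell each carry a 7mer-m8 match, the 2 that rose carry 7mer-A1 matches only, and P2rx7, with an 8mer, had a log2 fold change of -0.00072. Foxp1 and Elk1 also carry a 7mer-m8 match, with log2 fold changes of 0.10 and 0.080. In RNA from mixed cells, fewer cells of a type and less RNA per cell cannot be told apart.

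**Figure D2:**
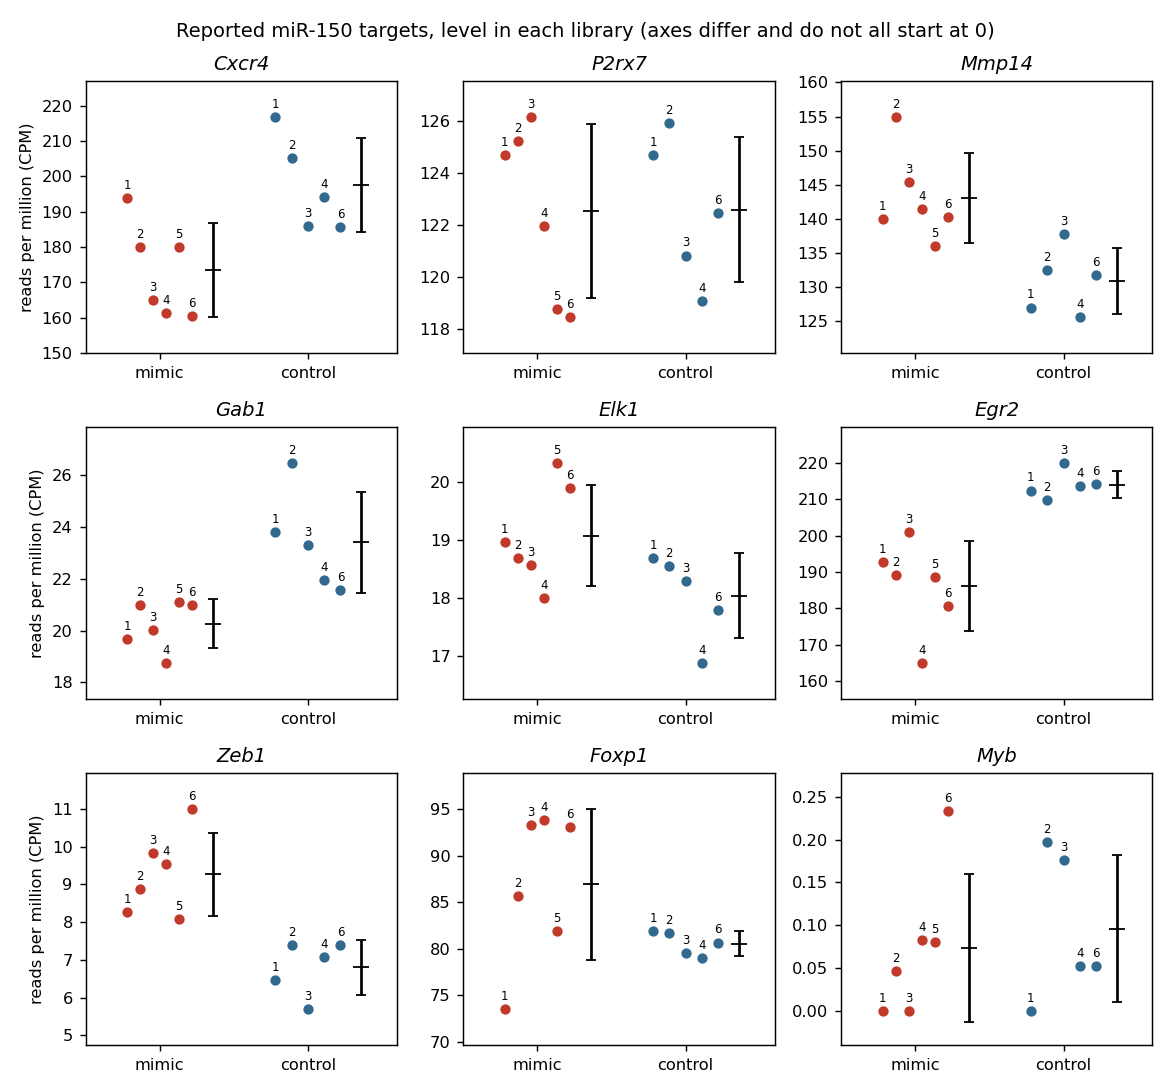
Level of each of the 9 genes in every library in CPM, with mimic libraries (red) left of controls (blue), replicate numbers above the points, and the mean with its SD in black. Egr2, Gab1 and Zeb1 show no overlap between the groups, while P2rx7 covers the same range in both; the axes differ between panels. Of all tested genes 6.04% were separated downward in this way and 8.89% upward.

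Cxcr4 encodes the receptor for the chemokine CXCL12, which guides the migration and retention of blood cells. It lies on chromosome 1 (128588199 to 128592293, GRCm38). Cxcr4 ranged from 160 to 194 CPM with a median of 172 in the mimic libraries, against 217, 205, 186, 194 and 186 CPM in control replicates 1, 2, 3, 4 and 6. Of the 6 mimic libraries 5 lay below every control, and mimic replicate 1 lay inside the control range. The fall was 0.19 ± 0.056 on the log2 scale (SE; limma adjusted p = 0.0195), with 7.43 ± 0.11 log2 CPM in mimic (SD, n = 6) and 7.62 ± 0.097 in control libraries (SD, n = 5). The 3 lowest libraries were mimic replicates 3, 4 and 6, those with the steepest length slope. The 1805 nt transcript of Cxcr4 is short beside the median of 3245 nt. The part of the length slopes in the order of these libraries was not tested. With a correction for length the log2 fold change was -0.12 (limma adjusted p = 0.0293). Without mimic replicates 3, 4 and 6 it was -0.096 and the call was lost (limma adjusted p = 0.19), as it was on omission of the first control replicate (-0.15, limma adjusted p = 0.061). Omitting control replicate 2 gave -0.17 (limma adjusted p = 0.0537).

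P2rx7 encodes an ATP-gated cation channel that triggers the NLRP3 inflammasome in macrophages, and lies on chromosome 5 (122643911 to 122691432). It ranged from 118 to 126 CPM with a median of 123 in mimic libraries, against 125, 126, 121, 119 and 122 CPM in control replicates 1, 2, 3, 4 and 6. The groups covered nearly the same range. The log2 fold change was -0.00072 ± 0.036 (SE), with an interval of 2 SE on either side from -0.072 to 0.071 (limma adjusted p = 0.991). With the length correction it was -0.046 (limma adjusted p = 0.358).

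Mmp14 encodes a membrane-anchored collagenase that cuts the matrix and activates the secreted gelatinase MMP2. It lies on chromosome 14 (54431612 to 54445364). Mmp14 ranged from 136 to 155 CPM with a median of 141 in mimic libraries, against 127, 132, 138, 126 and 132 CPM in the control replicates in the same order. Of the 6 mimic libraries 5 lay above every control, and mimic replicate 5 lay just below control replicate 3. The rise was 0.13 ± 0.041 on the log2 scale (SE), or 1.09-fold (limma adjusted p = 0.0297), and it was 0.13 with the length correction (limma adjusted p = 0.0207). This call lay near the threshold. It held without mimic replicates 3, 4 and 6 together (0.13, limma adjusted p = 0.0304), but leaving out mimic replicate 2 or 3 or control replicate 1, 2, 4 or 6, one at a time, put the limma adjusted p between 0.0512 and 0.0796, at log2 fold changes of 0.10 to 0.13.

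Gab1 encodes a docking protein that couples receptor tyrosine kinases such as MET to the phosphatase SHP2 and to phosphoinositide 3-kinase. It lies on chromosome 8 (80764438 to 80880519). Gab1 ranged from 18.7 to 21.1 CPM with a median of 20.5 in mimic libraries, against 23.8, 26.5, 23.3, 21.9 and 21.6 CPM in the controls. Every mimic library was under the lowest control, and 6.04% of all tested genes were separated in this way. The fall was 0.21 ± 0.058 on the log2 scale (SE; limma adjusted p = 0.015), and 0.25 ± 0.059 with the length correction (limma adjusted p = 0.00391). Without mimic replicates 3, 4 and 6 it was 0.18 and just missed the threshold (limma adjusted p = 0.0529). In the authors' deposited table Gab1 stands at -0.21 with an adjusted p of 0.0501, whereas Egr2, Cxcr4, Zeb1 and Mmp14 pass there, with adjusted p of 0.00203, 0.016, 0.00651 and 0.0444.

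Elk1 encodes a factor of the ETS family that binds with serum response factor at growth-factor-responsive genes, and lies on chromosome X (20933395 to 20950608). It ranged from 18.0 to 20.3 CPM with a median of 18.8 in mimic libraries, against 18.7, 18.6, 18.3, 16.9 and 17.8 CPM in controls. The groups overlapped, with 4 mimic libraries above every control and 2 inside the control range. The log2 fold change was 0.080 ± 0.051 (SE), with an interval of 2 SE on either side from -0.022 to 0.18 (limma adjusted p = 0.243). Its exons overlap those of Uxt on the same strand, which held 540 reads over the mimic libraries and 442 over the controls, so a few reads may be shared or dropped.

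Egr2 encodes a zinc finger transcription factor of the early growth response family, which macrophages use in their activation programmes. It lies on chromosome 10 (67535475 to 67542188). Egr2 ranged from 165 to 201 CPM with a median of 189 in mimic libraries, against 212, 210, 220, 214 and 214 CPM in controls. All 6 mimic libraries lay below all 5 controls, as in 6.04% of all tested genes. The controls were close together (7.74 ± 0.025 log2 CPM, SD, n = 5) while the mimic libraries varied more (7.54 ± 0.098, SD, n = 6). The fall was 0.20 ± 0.046 on the log2 scale (SE; limma adjusted p = 0.0042), 0.20 with the length correction and 0.17 without mimic replicates 3, 4 and 6. Of the 3 genes that fell, Egr2 was the one that passed in every fit tried, including each omission of 1 library.

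Zeb1 encodes a zinc finger repressor that binds E-boxes and drives epithelial to mesenchymal transition. It lies on chromosome 18 (5591860 to 5775467). Zeb1 ranged from 8.09 to 11.0 CPM with a median of 9.20 in mimic libraries, against 6.46, 7.38, 5.70, 7.07 and 7.40 CPM in controls. All 6 mimic libraries lay above all 5 controls, a separation upward that 8.89% of all tested genes showed. The rise was 0.44 ± 0.091 on the log2 scale (SE), or 1.36-fold (limma adjusted p = 0.00236), the largest change among the 8 in either direction. It was 0.39 with the length correction and 0.31 without mimic replicates 3, 4 and 6, and passed in both. Zeb1 rests on 1307 reads over the mimic libraries and 693 over the controls, and the gene Gm10125 on the opposite strand, which overlaps its exons, held 7 and 9 reads.

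Foxp1 encodes a forkhead repressor that acts in lymphocyte and monocyte development, and lies on chromosome 6 (98925338 to 99522721). It ranged from 73.6 to 93.8 CPM with a median of 89.4 in mimic libraries, against 82.0, 81.7, 79.5, 79.0 and 80.7 CPM in controls. Mimic replicates 3, 4 and 6 were the highest libraries of all and mimic replicate 1 the lowest. For Cxcr4, mimic replicate 1 was the highest mimic library and mimic replicates 3, 4 and 6 the lowest. The part of the length slopes in this order was not tested, and the 7177 nt transcript of Foxp1 is the longest of the 9. The log2 fold change was 0.10 ± 0.057 (SE), with an interval of 2 SE on either side from -0.011 to 0.22 (limma adjusted p = 0.179). With the length correction it was 0.033 (limma adjusted p = 0.525), and without mimic replicates 3, 4 and 6 it was -0.0056 (limma adjusted p = 0.953). Without mimic replicate 1 it was 0.15 and passed as higher (limma adjusted p = 0.0118).

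**Figure D3:**
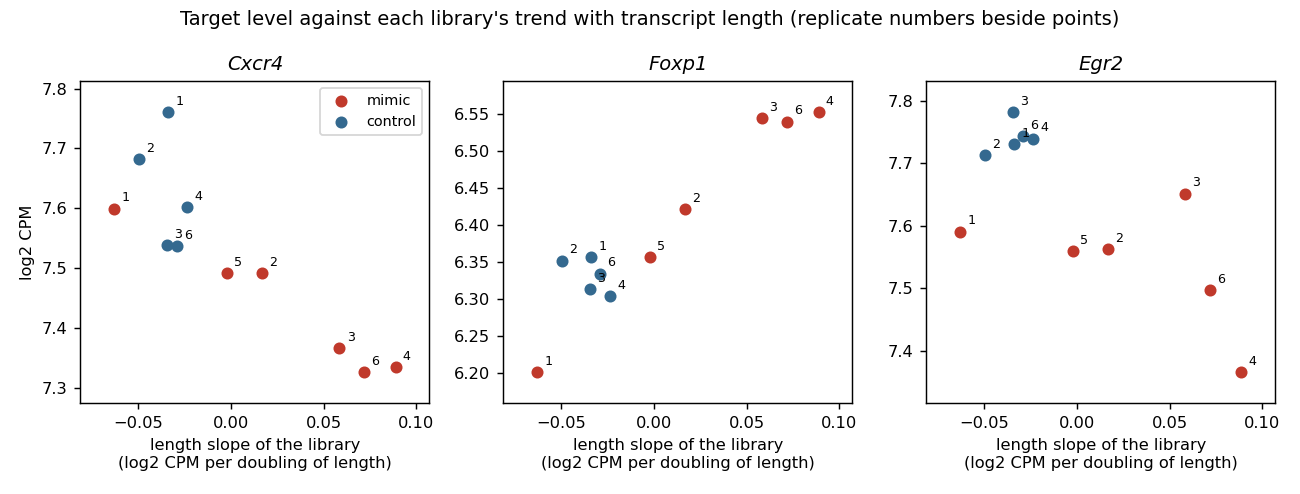
Log2 CPM of Cxcr4, Foxp1 and Egr2 in each library against that library's slope of log2 CPM on log2 transcript length, for mimic (red) and control (blue) libraries with replicate numbers. Mimic replicates 3, 4 and 6, at slopes of 0.058 to 0.089, are the lowest for Cxcr4 and the highest for Foxp1. For Egr2 all 6 mimic libraries are below the controls, with mimic replicates 4 and 6 the lowest and mimic replicate 3 the highest of them. The part of the slopes in these levels was not tested.

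Myb was close to absent and could not be tested in the fit. Its reads numbered 0, 1, 0, 2, 2 and 6 in mimic replicates 1 to 6, against 0, 4, 4, 1 and 1 in control replicates 1, 2, 3, 4 and 6. The mean was 0.0738 ± 0.0866 CPM with the mimic (SD, n = 6) and 0.0959 ± 0.0861 CPM in controls (SD, n = 5), and the p from an exact permutation test, two-sided, was 0.688. A count of 0 allows up to 3 reads, or 0.117 to 0.158 CPM depending on the library, which is counting error only and covers most of these values. A fall of Myb was therefore not detectable at this depth.

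**Figure D4:**
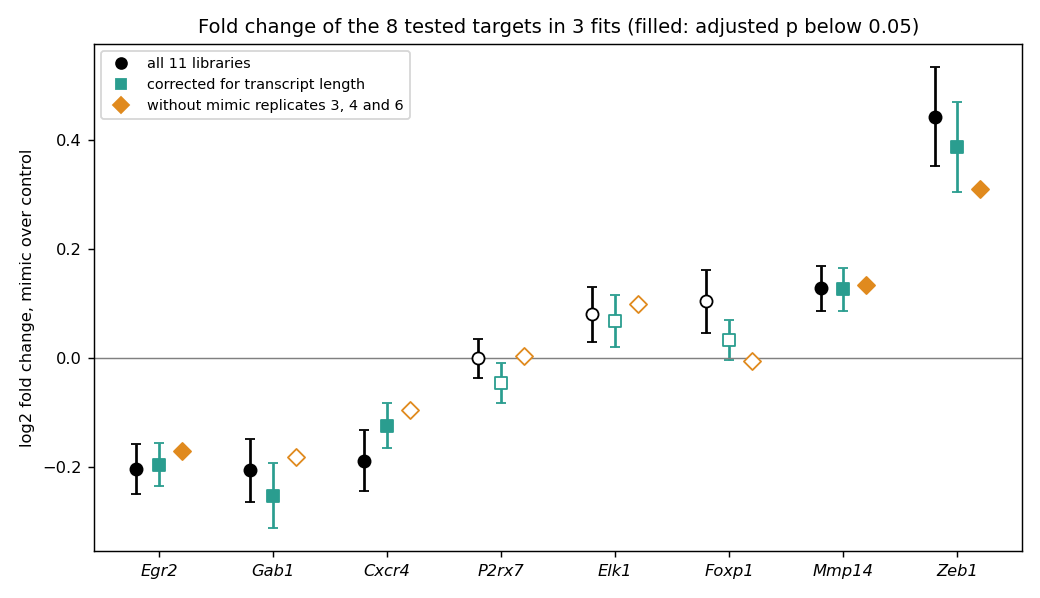
Log2 fold change of the 8 tested genes, mimic over control, in the fit to all 11 libraries (circles), after correction for transcript length (squares) and without mimic replicates 3, 4 and 6 (diamonds); bars on circles and squares are SE, and filled symbols passed the threshold. Egr2, Mmp14 and Zeb1 are filled in all 3 fits, Cxcr4 and Gab1 in the first 2.

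Set against transcript length, the 9 genes spanned a wide range of levels. In RPKM, CPM divided by the length of the longest transcript in kilobases, the order with the mimic was Cxcr4 (96.1 ± 7.39, SD, n = 6), Egr2 (62.8 ± 4.16), Mmp14 (44.2 ± 2.03), P2rx7 (24.8 ± 0.679), Foxp1 (12.1 ± 1.13), Elk1 (5.38 ± 0.246), Gab1 (4.06 ± 0.19), Zeb1 (1.6 ± 0.188) and Myb (0.02 ± 0.0234). The order in controls was the same. With the mimic no neighbours in this order overlapped in range. In controls Elk1 (4.76 to 5.27 RPKM) and Gab1 (4.32 to 5.31 RPKM) overlapped. Cxcr4 stood above 96.6% of the tested genes by this measure, Egr2 above 94.4% and Mmp14 above 90.6%, while Zeb1 stood above 24.9%. With the union of annotated exons as the length, 7 of the 9 genes kept their place, and Gab1 and Elk1 changed places.

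A further 18 genes reported elsewhere as miR-150 targets were looked up, of which 13 could be tested: 1 was higher and 2 were lower, against a background of 30.0% called. Their median log2 fold change was -0.076. Of the 13, 10 held a 7mer or 8mer match, against 26.3% of tested genes with an annotated 3′ UTR, with no adjustment for UTR length. Scd2, a stearoyl-CoA desaturase, fell by 0.38 ± 0.046 on the log2 scale (SE; limma adjusted p = 1.47e-05). Akt2, a kinase of the insulin and survival pathway, fell by 0.24 ± 0.045 (limma adjusted p = 0.00127). Socs1, a feedback inhibitor of cytokine signalling, rose by 0.67 ± 0.16 (limma adjusted p = 0.00513). With the length correction 1 was higher and 4 were lower, where 31.3% of all tested genes were called. Without mimic replicates 3, 4 and 6, 1 was higher and 4 were lower as well, where 16.2% of all tested genes were called. The laboratory behind the series is itself known for reporting Scd2 as a target, so the fall of Scd2 is not independent evidence for the list.

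The relatives and partners of the 9 genes moved in both directions. Among 63 that could be tested, 13 rose and 10 fell, beside the 30.0% called of all tested genes, with a median log2 fold change of -0.0043. With mimic replicates 3, 4 and 6 left out, these counts were 10 and 5, where 16.2% of all tested genes were called. With the length correction they were 12 and 12, where 31.3% of all tested genes were called.

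Of the CXCR4 axis, the ligand, G proteins and regulators of the receptor, 2 of 10 tested genes rose and 2 fell (median log2 fold change -0.12). Without mimic replicates 3, 4 and 6, 1 rose and 1 fell. Rgs1, which speeds the switching-off of G proteins, rose by 0.26 ± 0.047 (SE; limma adjusted p = 0.000783). Gnai3, an inhibitory G protein subunit, rose by 0.18 ± 0.049 (limma adjusted p = 0.012). Arrb1, a beta-arrestin that uncouples and internalises receptors, fell by 0.15 ± 0.037 (limma adjusted p = 0.00792). Gnai3 missed the threshold at 0.091 without mimic replicates 3, 4 and 6.

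Of the EGR family and its corepressors, 1 of 3 tested genes rose and 1 fell (median log2 fold change -0.17). Nab1 and Nab2 encode corepressors that bind EGR proteins. Nab1 rose by 0.33 ± 0.053 (SE; limma adjusted p = 0.000302) and Nab2 fell by 0.24 ± 0.058 (limma adjusted p = 0.00708).

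Around Zeb1, 0 of 5 tested genes rose and 1 fell (median -0.16): Ctbp1, a corepressor recruited by ZEB proteins, fell by 0.16 ± 0.046 (SE; limma adjusted p = 0.0147), a call lost without mimic replicates 3, 4 and 6 (-0.092). Around Gab1, 2 of 11 rose and 2 fell (median 0.086). With the length correction 1 rose and 2 fell, and without mimic replicates 3, 4 and 6, 0 rose and 2 fell. The adapters Shc1 and Grb2, which carry receptor signals towards RAS, fell by 0.25 ± 0.058 and 0.16 ± 0.040 (limma adjusted p = 0.00552 and 0.00797). Pik3r1, the regulatory subunit of phosphoinositide 3-kinase, rose by 0.17 ± 0.059 (limma adjusted p = 0.0367), a call lost on leaving out any single one of mimic replicates 3, 4 and 6 or control replicates 2, 3, 4 and 6. It was 0.048 without mimic replicates 3, 4 and 6 together. Pik3r1 also missed the threshold with plain totals (limma adjusted p = 0.0774), upper-quartile scaling (0.0752), and neither trend nor robust moderation (0.0764).

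Of the proteases, inhibitors and partners of MMP14, 1 of 7 rose and 0 fell (median -0.12). With the length correction 1 rose and 1 fell, and without mimic replicates 3, 4 and 6, 0 rose and 0 fell. Cd44, the hyaluronan receptor that MMP14 cleaves, rose by 0.14 ± 0.043 (SE; limma adjusted p = 0.0253). That call was lost without mimic replicate 3 or 6 or control replicate 4 or 6, and Cd44 was 0.064 without mimic replicates 3, 4 and 6. Cd44 also missed the threshold with plain totals (limma adjusted p = 0.0523), upper-quartile scaling (0.0663), and neither trend nor robust moderation (0.0517). Of 5 tested relatives and targets of Myb, limma called 0 at the adjusted threshold. Mybl2, a MYB relative of dividing cells, measured 0.38 ± 0.20 (limma adjusted p = 0.143) and Crebbp, a coactivator bound by MYB, 0.11 ± 0.071 (limma adjusted p = 0.243), though Crebbp passed without mimic replicate 1 (0.16) and Mybl2 when limma ran with neither trend nor robust moderation.

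Of the P2X receptors and the NLRP3 inflammasome, 4 of 10 rose and 1 fell (median 0.057). Without mimic replicates 3, 4 and 6, 5 rose and 0 fell. The protease gene Casp1 rose by 0.40 ± 0.038 (SE; limma adjusted p = 7.43e-07), Gsdmd, whose product forms the membrane pore, by 0.31 ± 0.046 (limma adjusted p = 0.000138), and the sensor gene Nlrp3 by 0.37 ± 0.064 (limma adjusted p = 0.000594). These 3 passed in every fit tried.

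Of the forkhead genes related to Foxp1, 0 of 4 rose and 2 fell (median -0.14). Foxp4, its nearest tested relative, fell by 0.34 ± 0.082 (SE; limma adjusted p = 0.00607) and Foxo3, a stress-responsive forkhead factor, by 0.15 ± 0.036 (limma adjusted p = 0.00651). Foxp4 just missed the threshold at -0.30 without mimic replicates 3, 4 and 6. In that fit 0 of the forkhead genes rose and 1 fell, and with the length correction 0 rose and 3 fell. Of the partners and targets of ELK1, 3 of 9 rose and 1 fell (median 0.065). Dusp1, a phosphatase of MAP kinases, rose by 0.24 ± 0.064 (limma adjusted p = 0.0119). Fos rose by 0.17 ± 0.056 (limma adjusted p = 0.0359), and Junb fell by 0.33 ± 0.089 (limma adjusted p = 0.0133); the 2 encode subunits of the AP-1 factor. Fos missed the threshold on leaving out any single one of mimic replicates 2, 3, 5 and 6 or control replicates 1, 2, 4 and 6, and with upper-quartile scaling (limma adjusted p = 0.0756) or neither trend nor robust moderation (0.0676). Junb missed it without mimic replicates 3, 4 and 6 (-0.15), and with no filter on low values (limma adjusted p = 0.0937).

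**Figure D5:**
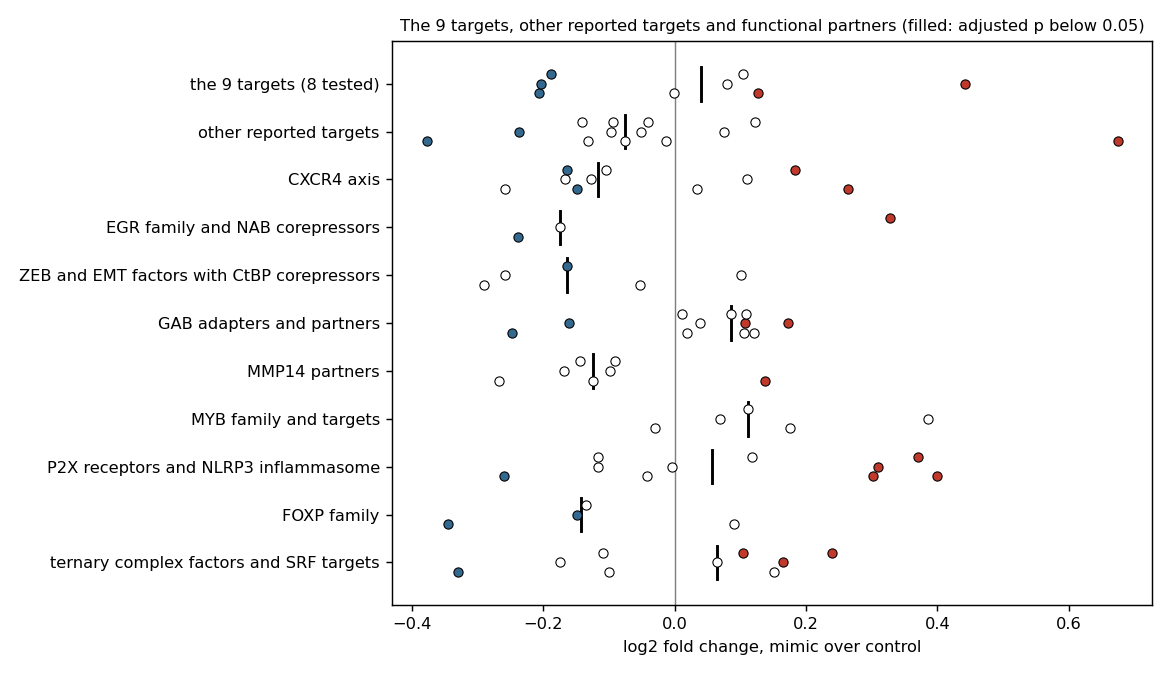
Log2 fold change, mimic over control, of each tested gene among the 9 targets, the other reported targets and the lists of relatives and partners. Filled points passed the threshold (red higher, blue lower), black bars are list medians, and each list holds points on both sides of 0.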

How the data were processed

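The authors deposited one table of log2 CPM per gene and library, with a log2 fold change, a p-value and an adjusted p-value per gene, and signed fold and test-statistic scores that were not used here. Tools named in the submitters' processing notes are edgeR, featureCounts, Subread and STAR, without versions. Build, annotation, strand setting and the test behind the authors' p-values are not given in the sources used here. For each gene ID the first row was kept. Each deposited log2 CPM value equalled log2 of (reads + 0.5) over a scaled library total, and whole reads were recovered for 100% of values within 0.01 read. CPM and RPKM here are those reads over the authors' scaled totals.

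The 9 genes, all lists and the test of the length slope were chosen with earlier results of these data known. The 12969 genes reaching a log2 CPM of -1 in 5 or more libraries were fitted with limma 3.58.1 (R 4.3.3, statmod 1.5.0) on the deposited log2 CPM, with group as the only term, an intensity trend and robust moderation. Adjusted p-values are Benjamini-Hochberg over all tested genes. The fit was tested on simulated data, where the share of false calls was above the 0.05 threshold in most simulated sets. Those sets held far fewer changed genes than were called here, larger changes, and no trend with transcript length. The share itself therefore does not carry over to these libraries. Calls near the threshold should still be read as less certain than their adjusted p states. Named genes were all 9 targets and, per list, up to 3 called genes by smallest p, or 2 where none was called; 2 likest genes were named per tested target. Groups and replicate numbers came from the sample titles; nothing says that replicates came from separate animals, so p-values measure the spread between these libraries, which may be technical. Seed letters of miR-150-5p are from general knowledge. Lengths, coordinates and UTRs are from GENCODE M21 (GRCm38), which may differ from the authors' annotation. Plots were drawn with matplotlib 3.10.9 from tables made with numpy 2.4.6 and pandas 2.3.3.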

Additional observations from a re-analysis of the deposited data

How the results depend on the processing

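Egr2 and Zeb1 kept their direction and their call in every alternative, and Elk1 was called in none. The call of Mmp14 was lost with plain totals (0.12), upper-quartile scaling (0.095), no filter or no trend and robust settings (0.13 each), so 1 target was higher in these fits. At an adjusted p below 0.01, Cxcr4 (-0.19), Gab1 (-0.21) and Mmp14 (0.13) missed, which left 1 target higher and 1 lower, 5 partners higher, and 967 genes higher and 792 lower in all. Without mimic replicates 3, 4 and 6, 1 target was lower, with Cxcr4 at -0.096, Gab1 at -0.18, Foxp1 at -0.0056 and P2rx7 at 0.0036. In that fit 4 other reported targets and 5 partners were lower, and 1214 genes were higher and 886 lower. The difference in length slope was 0.018 in place of 0.062. Those libraries have the steepest slopes, so a smaller difference follows from leaving them out. They are also the lowest for Cxcr4 and the highest for Foxp1, so smaller changes of those genes follow as well. In the voom fit Foxp1 passed (0.14), P2rx7 was 0.0065 and 2 other reported targets were higher, as at an adjusted p below 0.1. Upper-quartile scaling gave 7 partners higher and 4 other reported targets lower, and the length correction 4 lower. Counting 8mer and 7mer-m8 matches only, 7 of the 9 genes held one. Unless an alternative's own construction shows it (fewer libraries, another threshold), the cause was not tested.

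With each library left out in turn, log2 fold changes ran from -0.22 to -0.15 for Cxcr4, -0.23 to -0.17 for Egr2, 0.38 to 0.48 for Zeb1, -0.24 to -0.16 for Gab1, 0.10 to 0.15 for Mmp14, -0.011 to 0.0090 for P2rx7, 0.081 to 0.15 for Foxp1 and 0.056 to 0.096 for Elk1. Targets called ran from 1 to 3 higher and 2 to 3 lower, other reported targets 1 to 2 higher and 2 to 4 lower, partners 7 to 18 higher and 9 to 15 lower, and all genes 1488 to 2693 higher and 1403 to 2506 lower. The Myb difference ran from -0.054 to 0.0032 CPM, and the slope difference from 0.050 to 0.081 (exact p 0.00794 to 0.0873). These omissions for Myb and the slope were added after the data were seen.

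Same-numbered libraries of the groups correlated between -0.061 and 0.062 in their deviations from the group means. For mimic replicates 4 and 6 the same-numbered control was the closest. The labels do not say whether replicates were paired. These correlations cannot exclude it, since the deviations also hold the trend with transcript length. The fit with the replicate number as a block left out mimic replicate 5, which has no control of that number. P2rx7 was 0.0082 there, the same as without mimic replicate 5 and with no block. No call among the 8 targets changed in the block fit. Of the partners named, Cd44 missed the threshold in it (0.15, limma adjusted p = 0.052).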

Other observations

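Over the 11 libraries, the transcripts whose log2 CPM ran most closely with each tested target were sought among 10122 protein-coding genes, as a description of these libraries that includes the difference between the groups. For Cxcr4 they were Lyz2, the macrophage lysozyme gene (Pearson r = 0.97), and Arl6ip5 (0.96), both lower with the mimic. For Egr2 they were Nucb1 (0.97) and Ints1 (0.96), for Gab1 Mta2 (0.93) and Paip2 (0.93), for Zeb1 Nabp1 (0.97) and Krr1 (0.95), and for Mmp14 Fam192a (0.92) and App (0.89). For Foxp1 they were Gpatch11 and Rasal2 (0.98 each), for Elk1 Ctsl (0.94) and Ldha (0.91), and for P2rx7 Kat8 (0.87) and Kpna2 (0.86). Each pair was the highest in a search of many genes over 11 libraries, and such a search returns some high r even among unrelated genes. The points share library depth and the trend with transcript length.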
